A study of Caenorhabditis elegans with 20 samples.

Results

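The genes described here build and run cilia in the nematode Caenorhabditis elegans. They were taken by name from a list of 44 cilium and intraflagellar transport genes, of which 43 are listed in at least 1 of the 5 deposited tables, out of 18917 genes listed there in all. The gene che-10 was named by the list and is in no table. By role the 43 genes were 4 of intraflagellar transport complex A, 14 of complex B, 6 motor genes, 7 grouped with the BBSome, 6 of the transition zone, 2 ARL GTPase genes and 4 regulators or structural genes. The measurements came from TRAP, translating ribosome affinity purification. Tagged ribosomes of chosen cells are immunoprecipitated from lysed whole animals, and the mRNA bound to them is sequenced. Strain JAC126 was purified for neurons in general (called neuronal here), JAC433 for serotonin neurons, JAC379 for dopamine neurons, JAC127 for muscle and JAC382 for intestine. For every strain there were 2 TRAP libraries and 2 of the lysate before purification (input), 20 libraries in all, from synchronized L4 larvae kept at 22 °C on OP50-1 bacteria and taken 46 to 48 h past L1 release. The promoter that drove the purification and the tagged protein are not given in the sources used here.

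A cilium is a slender extension of the cell membrane around a bundle of microtubules, and in C. elegans it is found only at the dendrite endings of sensory neurons, since the sperm of this animal crawl and have no flagellum. Intraflagellar transport carries tubulin and membrane proteins up the cilium on kinesin motors and back on a dynein. Complex B works mainly in the outward trip and complex A mainly in the return, the BBSome helps to hold the trains together and to move membrane proteins, and the transition zone at the base gates what enters. Many of these genes are switched on by the RFX transcription factor DAF-19 through a promoter element called the X-box. All dopamine neurons of the hermaphrodite are ciliated, whereas among the serotonin neurons the ADF pair is ciliated and the NSM and HSN neurons are not.

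Levels are given in RPKM, which divides reads by gene length and library size, so that genes can be compared. In each replicate only genes that reached 1 RPKM in TRAP or input are listed. The fewest recovered reads, 4.46 M (M for mega), were in neuronal input replicate 1 and the most, 239.7 M, in dopamine input replicate 1. In the neuronal inputs the cilium genes had a median of 2 and 5 reads in replicates 1 and 2, and 37 and 32 of the 43 genes had under 10. The synaptic vesicle gene rab-3 had 688 and 723 RPKM in neuronal TRAP and 10.8 and 2.51 in its inputs. The serotonin synthesis gene tph-1 had 67.2 and 7.58 RPKM in serotonin TRAP against 3.47 and 0.528, and the dopamine synthesis gene cat-2 had 30.5 and 4.57 RPKM in dopamine TRAP against 0.503 and 0.486. In both of these strains replicate 1 was the higher TRAP library for its marker. The marker lists did not move as a whole. Of 5 serotonin neuron markers tph-1 and cat-1 had both TRAP values above both serotonin inputs and cat-4 had both below, and the summed RPKM of the list was 226.6 and 85.9 in TRAP against 335 and 169 in input. Of 5 dopamine neuron markers cat-2, dat-1 and cat-1 lay above the dopamine inputs and bas-1 and cat-4 below, with sums of 127 and 36.7 in TRAP against 286 and 118.9 in input. All 12 pan-neuronal markers lay above the inputs in neuronal. In serotonin 6 of the 11 listed in both replicates lay above and 3 below, and in dopamine 4 of 11 lay above and 4 below. The myosin genes unc-54 and myo-3, picked out after their values were seen, were high in those TRAP libraries, unc-54 with 1952 and 1756 RPKM in serotonin TRAP against 64.95 and 33.8 in input and 418 and 33081 in dopamine TRAP against 23.3 and 146. For myo-3 the TRAP values were 310.3 and 477 RPKM in serotonin and 35.2 and 4161 in dopamine, and the inputs were 3.83 and 6.81 and 5.60 and 16.3. The summed RPKM of the 10 listed body wall muscle markers was 8634 and 11965 in serotonin TRAP against 18139.9 and 15114 in input. In dopamine it was 5801.5 and 50491 in TRAP against 13477 and 14619.9 in input. Of the 50491 RPKM in dopamine TRAP replicate 2, unc-54 alone had 33081. These lists did not move as a whole either. Of the muscle markers 4 lay above both serotonin inputs and 3 below, and 3 above both dopamine inputs and 3 below. The 10 epidermis markers summed to 4497 and 4791 RPKM in serotonin TRAP over inputs of 841 and 2368, and to 4475 and 2407 in dopamine TRAP over inputs of 756 and 2492. Only 1 of them, dpy-5, lay above both inputs in either strain, while 2 lay below in serotonin and 4 in dopamine. The 10 intestine markers summed to 7170.3 and 7804 RPKM in serotonin TRAP over inputs of 3629 and 5102, and to 6063 and 2292 in dopamine TRAP over inputs of 2299.96 and 4567. Of these 3 lay above both inputs and 1 below in serotonin, and 2 above and 3 below in dopamine. The part of these cell types in the results below was not tested.

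The neuronal comparison asks which transcripts are carried by ribosomes of neurons. Every one of the 43 cilium genes was listed in both neuronal replicates, and each had both TRAP values above both input values. TRAP levels ran from 2.45 to 139.6 RPKM in replicate 1, with a median of 14.7, and from 2.86 to 162 RPKM in replicate 2, with a median of 16.8. Input levels ran from 0 to 4.23 RPKM in replicate 1, with a median of 0.299, and from 0 to 0.803 RPKM in replicate 2, with a median of 0.0791. A lower number of cells of a type and less RNA per cell cannot be told apart in such bulk libraries.

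**Figure D1:**
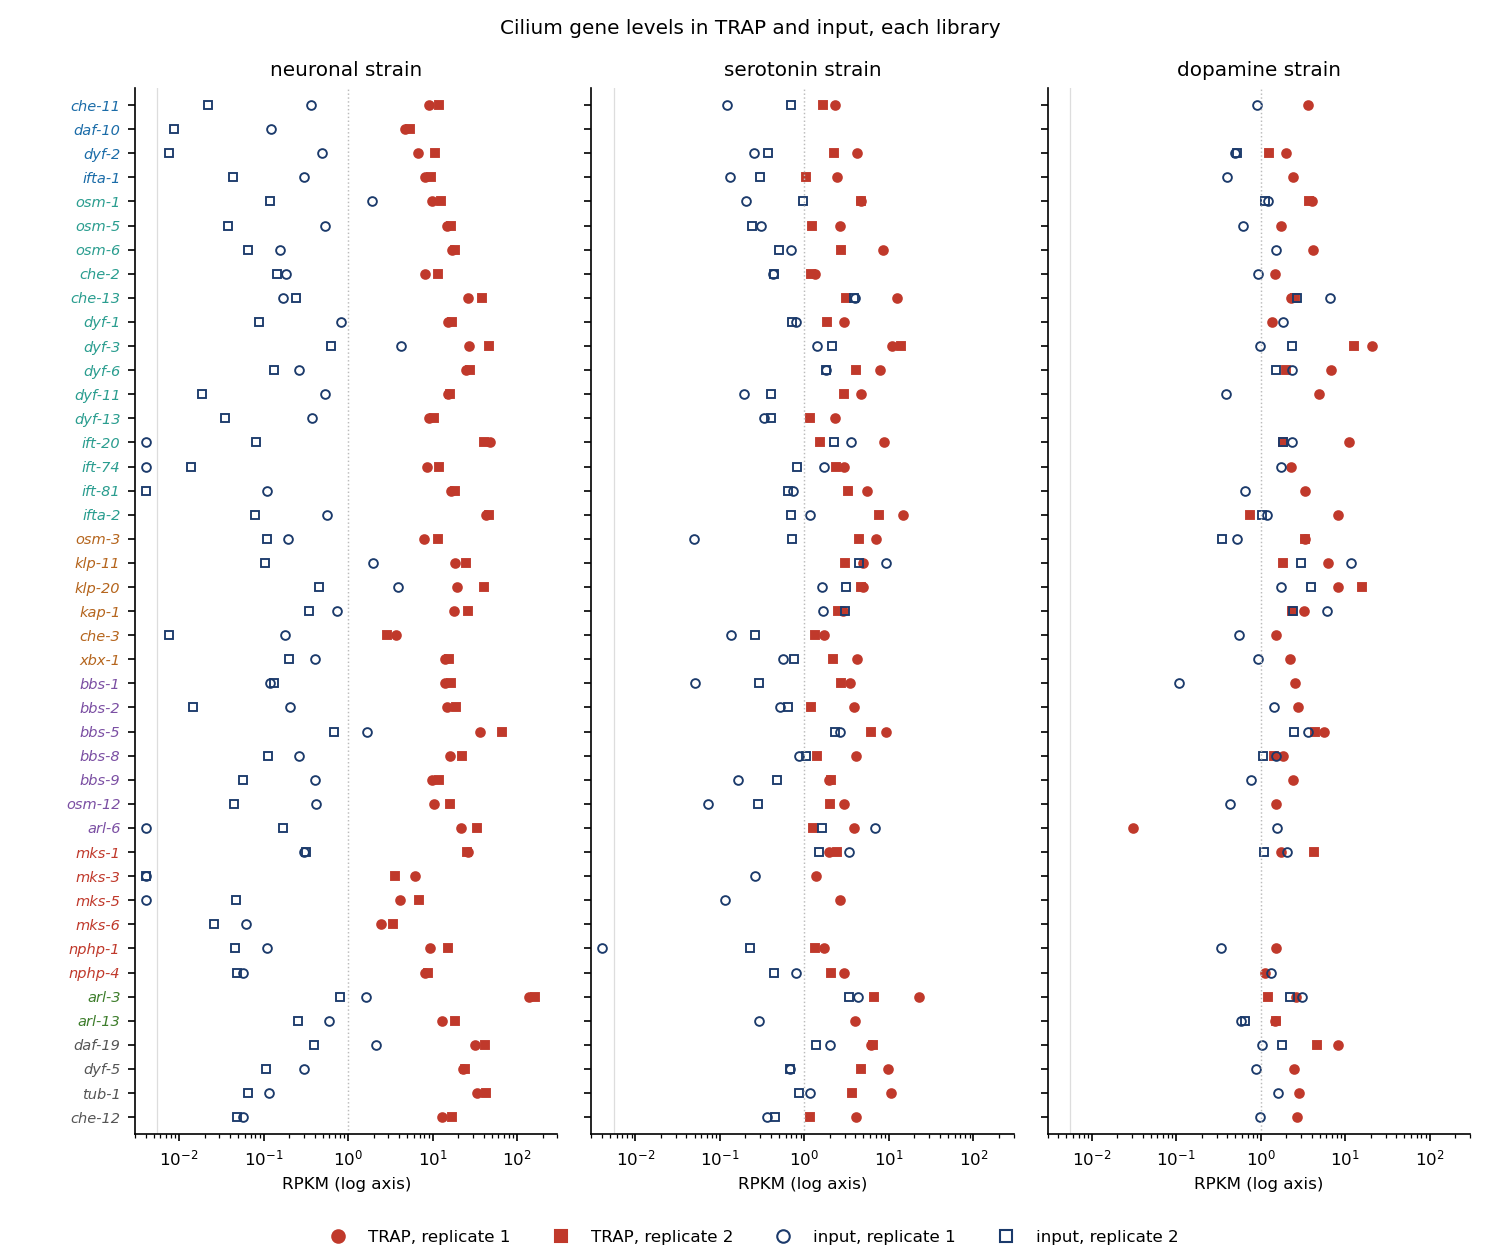
Levels of the 43 cilium genes in RPKM on a log axis, in TRAP (filled) and input (open), replicate 1 as circles and replicate 2 as squares, for the neuronal, serotonin and dopamine strains. Points left of the thin line at the left edge are listed at 0, the dotted line marks 1 RPKM, and gene names are coloured by role. In the neuronal strain TRAP lies above input for all 43 genes, and in the other strains the points lie closer together.

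On the scale of log2 of RPKM + 1, which understates the change of low genes, 41 of the 43 genes were higher in neuronal TRAP than in input and none was lower (limma-trend, Benjamini-Hochberg adjusted p below 0.05 over 13435 genes tested, n = 2 and 2). Among all genes tested 16.8% were called higher and 0.588% lower. The median change of the cilium genes was 3.63 against 0.81 for all genes tested, and after scaling of the libraries by relative log expression (RLE) it was 3.01 against -0.09. Both TRAP values lay above both inputs for 43% of all genes tested. Through their TRAP value alone 36 of the 43 genes were listed in replicate 1 and all 43 in replicate 2, so the direction of those is set by the listing rule and their count supports nothing. The count depended on single libraries. Without neuronal input replicate 2 the test called 9 of the 43 genes (3.08% of all genes) and without TRAP replicate 1 it called 26 (8.49%). The edgeR quasi-likelihood test on recovered reads called none of the 43 and no gene at all, with adjusted p from 0.0529 to 0.081 for the cilium genes with 43 of 43 at an unadjusted p below 0.05, as were 3965 of the 13435 genes. DESeq2 on the same reads called all 43 higher, and 18.7% of all genes.

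Over the 16 cilium genes listed in both replicates of all 3 strains, the summed RPKM was 20.4 and 4.599 in the neuronal inputs. The sums were 37.9 and 32.9 in the serotonin inputs and 46.5 and 29.5 in the dopamine inputs. The tables were normalized separately, so these sums are set side by side only. Neuronal input replicate 2 stood apart over all genes too, with a median log2(RPKM + 1) difference of 1.43 between input replicates 1 and 2 over all genes and 0.23 over the cilium genes. The 0.23 understates the cilium difference, since the + 1 compresses values this low. Their median input was 0.299 RPKM in replicate 1 and 0.0791 in replicate 2. Against every input value listed for the same gene in any of the 5 tables, both neuronal TRAP values were higher for 43 of 43 genes. For 2 of them, daf-10 and mks-6, no other strain gave a value, and genes below 1 RPKM in both libraries are not listed. The share over all genes was not computed, so this count supports nothing further.

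Complex A had the narrowest range in neuronal TRAP, 4.76 to 11.8 RPKM over its 4 genes, with inputs up to 0.484. Its subunit gene daf-10 had 4.76 and 5.42 RPKM in TRAP and 0.124 and 0.00876 in input, which is a log2 change of 2.51 ± 0.71 (SE, adjusted p = 0.00574). The complex A gene dyf-2 had 6.73 and 10.7 RPKM in TRAP and 0.484 and 0.00761 in input, a log2 change of 2.96 ± 0.92 (adjusted p = 0.0114). The other subunit genes che-11 and ifta-1 had 9.12 and 11.8 RPKM and 8.08 and 9.51 RPKM in TRAP. In all of these genes the TRAP values lay far above the inputs, and all 4 complex A genes were called higher.

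Complex B spanned 8.01 to 47.2 RPKM in neuronal TRAP, and 13 of its 14 genes were called higher. The small subunit gene ift-20 had 47.2 and 40.2 RPKM in TRAP and 0 and 0.0820 in input, a log2 change of 5.42 ± 1.30 (adjusted p = 0.0012). Its input was listed at 0 in replicate 1. The gene osm-1, for the largest complex B subunit, had 9.90 and 12.7 RPKM in TRAP and 1.93 and 0.119 in input, and with a log2 change of 2.75 ± 1.14 (adjusted p = 0.0793) it was the member of this complex that missed the threshold. The inputs of osm-1 differed more between replicates than its TRAP values did, a spread that enters neither its SE nor its p. The gene dyf-3, which had the highest value of all 43 genes in neuronal input replicate 1, had 26.9 and 46.2 RPKM in TRAP and 4.23 and 0.629 in input. The genes che-2, dyf-1, dyf-13, ift-74 and osm-5, for further subunits or partners of complex B, lay between 8.01 and 16.8 RPKM in TRAP. Also high in TRAP were ifta-2, a Rab-like GTPase of complex B, with 42.9 and 46.9 RPKM, and che-13 with 25.9 and 38.8 RPKM.

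Of the 6 motor genes 5 were called higher. The gene osm-3, for the kinesin that drives the outer part of the cilium by itself, had 7.998 and 11.5 RPKM in neuronal TRAP and 0.192 and 0.109 in input, a log2 change of 3.21 ± 0.94 (adjusted p = 0.00721). The gene klp-20, for a motor subunit of kinesin-II, had 19.2 and 40.6 RPKM in TRAP and 3.94 and 0.455 in input, and its log2 change of 3.43 ± 1.33 did not pass (adjusted p = 0.0554). Both replicates of klp-20 differed within TRAP and within input, though the groups did not overlap. That spread enters neither its SE nor its p. Its partner motor gene klp-11 had 18.5 and 24.8 RPKM in TRAP and 1.95 and 0.104 in input. The heavy chain gene of the return dynein, che-3, was among the lowest of all 43 genes with TRAP values of 3.70 and 2.86 RPKM and inputs of 0.179 and 0.00761, while xbx-1, for a light intermediate chain of the same dynein, had 14.1 and 15.8 and 0.405 and 0.201 RPKM.

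All 7 genes grouped with the BBSome were called higher. The GTPase gene arl-6, whose product binds the BBSome, had 21.7 and 33.8 RPKM in neuronal TRAP and 0 and 0.167 in input, a log2 change of 4.70 ± 1.23 (adjusted p = 0.00318). The subunit gene bbs-9 had 9.78 and 11.8 RPKM in TRAP and 0.404 and 0.0572 in input, a log2 change of 3.27 ± 0.99 (adjusted p = 0.00972). The level of bbs-5 in TRAP, 36.3 and 66.1 RPKM, was above that of every other gene of this group in both libraries.

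The transition zone held several of the lowest levels, and all 6 of its genes were called higher. The gene mks-3, for a membrane protein of the gate, had 6.18 and 3.59 RPKM in neuronal TRAP and was listed at 0 in both inputs. With 3 reads in each input as the floor, its TRAP mean was at least 34.8-fold higher than input, and its fitted log2 change of 2.52 ± 0.67 (adjusted p = 0.00377) is no bound. The gene mks-6 had the lowest TRAP level of the 43 genes in replicate 1, with 2.45 and 3.40 RPKM in TRAP and 0.0613 and 0.0260 in input, a log2 change of 1.90 ± 0.57 (adjusted p = 0.00888). The genes mks-5, nphp-1 and nphp-4 lay between 4.1 and 15.3 RPKM in TRAP. The transition zone gene mks-1 differed from the rest of its group by level, with 26.03 and 25.3 RPKM in TRAP and inputs of 0.299 and 0.318.

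The GTPase gene arl-3, whose product releases lipid-anchored cargo inside cilia, had the highest level of all 43 genes in both neuronal TRAP libraries. It had 139.6 and 162 RPKM in TRAP and 1.62 and 0.803 in input, a log2 change of 6.12 ± 1.21 (adjusted p = 3.26e-05). The other ARL gene, arl-13, known for Joubert syndrome in humans, had 12.8 and 18.2 RPKM in TRAP and 0.597 and 0.254 in input, a log2 change of 3.52 ± 1.15 (adjusted p = 0.0172).

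All 4 regulators and structural genes were called higher. The Tubby gene tub-1 had 33.2 and 42.4 RPKM in neuronal TRAP and 0.115 and 0.0651 in input, a log2 change of 5.15 ± 1.29 (adjusted p = 0.00214). The transcription factor gene daf-19 had 32.02 and 41.4 RPKM in TRAP and 2.12 and 0.393 in input, a log2 change of 4.17 ± 1.33 (adjusted p = 0.0145). The kinase gene dyf-5, which limits cilium length, and che-12, for a HEAT-repeat protein of the cilium, had 22.6 and 24.3 and 13.1 and 16.9 RPKM in TRAP.

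**Figure D2:**
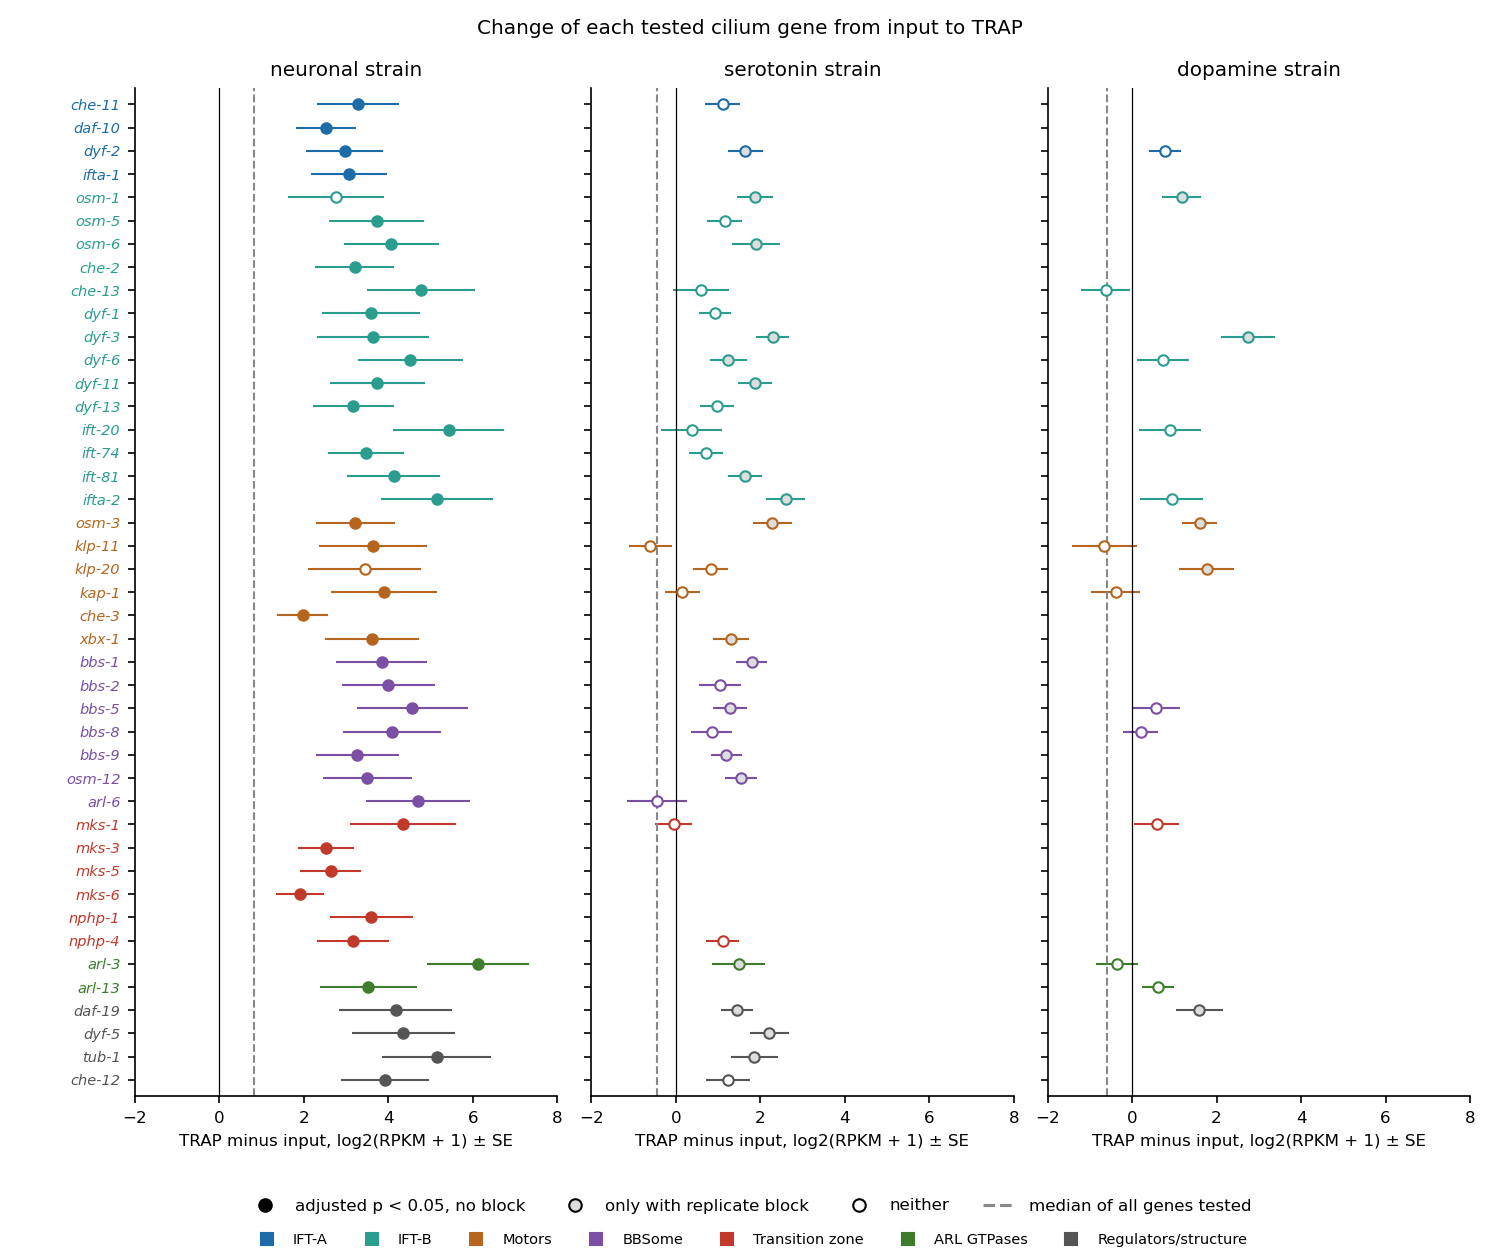
Log2 change from input to TRAP (RPKM + 1) with its SE for each tested cilium gene, by role, in the 3 strains. Filled points pass an adjusted p of 0.05 without the replicate block, grey points pass only with it, and the dashed line is the median of all genes tested (0.81, -0.44 and -0.60). In neuronal 41 of 43 points are filled, and in serotonin and dopamine none is.

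The serotonin purification asked the same of a smaller set of neurons, of which some are ciliated. There the cilium genes were listed at 1.05 to 22.5 RPKM in TRAP. In both replicates 38 of the 43 genes were listed, 3 in a single replicate, and 2 (daf-10 and mks-6) in neither. Of the 38, TRAP was above its own input in both replicates for 32 genes and at least 2 times as high in both for 27. The 6 exceptions were klp-11 and kap-1 of kinesin-II, che-13 and ift-20 of complex B, arl-6 and mks-1. Through TRAP alone 26 of 41 listings in replicate 1 and 25 of 38 in replicate 2 arose, which sets their direction. The share of all genes above their own input in both replicates was not computed. Over all genes listed, the median log2 change was -0.48 in replicate 1 and -0.37 in replicate 2.

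None of the 34 cilium genes tested in serotonin passed without the replicate block, nor did any of the 14587 genes (0% called), while 20 of the 34 cilium genes had an unadjusted p below 0.05 by limma. edgeR called none either, with 26 of 34 at an unadjusted p below 0.05. With the replicate number as a block, which pairs each TRAP library with its input, 18 of the 34 were called higher and none lower, and DESeq2 on recovered reads called 25 higher (8.79% of all genes). With the block 9.77% of all genes were called higher and 29% lower. The median change was 1.24 for the cilium genes and -0.44 for all genes tested. Both TRAP values lay above both inputs for 28 of the 34, against 19.8% of all genes. Most serotonin listings arose through TRAP alone, as given above, which sets their direction, so these counts and the median support nothing further. Below, each change has its SE from the unblocked fit and its adjusted p from the blocked one, and no gene passed without the block.

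In complex A, dyf-2 had 4.14 and 2.27 RPKM in serotonin TRAP and 0.254 and 0.366 in input, a log2 change of 1.65 ± 0.41 (p with the block = 0.0178). The complex B gene ifta-2 had 14.6 and 7.66 RPKM in TRAP and 1.18 and 0.696 in input, a log2 change of 2.60 ± 0.47 (p with the block = 0.00456). The gene dyf-3 had 10.9 and 14.1 RPKM in TRAP and 1.40 and 2.13 in input, a log2 change of 2.29 ± 0.40 (p with the block = 0.00476). For all 3 genes the TRAP libraries were above both inputs, and dyf-3 was higher in replicate 2 where the other 2 were higher in replicate 1. Complex B further gave osm-1, at 4.62 and 4.64 RPKM in TRAP and 0.202 and 0.961 in input, with a log2 change of 1.88 ± 0.42 (p with the block = 0.0103). The core subunit gene osm-6 had 8.50 and 2.71 RPKM in TRAP and 0.692 and 0.504 in input, a log2 change of 1.90 ± 0.56 (p with the block = 0.0125). Its TRAP libraries differed from each other more than its inputs did. The genes dyf-11 and ift-81 had TRAP values of 4.73 and 2.90 RPKM and 5.44 and 3.25 RPKM, over inputs of 0.194 and 0.399 and of 0.723 and 0.642, with log2 changes of 1.87 ± 0.40 and 1.64 ± 0.40 (p with the block = 0.0116 and 0.0143). The gene dyf-6 had 7.76 and 4.06 RPKM in TRAP and 1.80 and 1.81 in input, a log2 change of 1.25 ± 0.44 (p with the block = 0.0334).

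Among the motors, osm-3 had 6.97 and 4.38 RPKM in serotonin TRAP and 0.0495 and 0.716 in input, a log2 change of 2.29 ± 0.46 (p with the block = 0.00795). The dynein gene xbx-1 had 4.23 and 2.18 RPKM in TRAP and 0.557 and 0.762 in input, a log2 change of 1.30 ± 0.42 (p with the block = 0.0396). The kinesin-II genes differed among themselves. For klp-20 the TRAP values of 4.96 and 4.62 RPKM lay above both inputs, 1.60 and 3.08, though its change did not pass. For klp-11 the TRAP values of 4.93 and 3.02 RPKM lay below the inputs of the same replicates, 9.13 and 4.39, and for kap-1, the accessory subunit, 2.84 and 2.48 RPKM in TRAP and 1.65 and 3.05 in input overlapped.

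Of the BBSome genes 4 passed with the block. The subunit gene bbs-1 had 3.46 and 2.68 RPKM in serotonin TRAP and 0.0506 and 0.293 in input, a log2 change of 1.80 ± 0.37 (p with the block = 0.0128). The gene osm-12, which encodes another subunit, had 2.94 and 1.99 RPKM in TRAP and 0.0715 and 0.280 in input, a log2 change of 1.55 ± 0.38 (p with the block = 0.0222). The genes bbs-5 and bbs-9 had TRAP values of 9.13 and 6.18 RPKM and 1.97 and 2.06 RPKM, over inputs of 2.65 and 2.32 and of 0.165 and 0.477, with log2 changes of 1.29 ± 0.40 and 1.20 ± 0.36 (p with the block = 0.0213 and 0.0472). None of these 4 overlapped between TRAP and input, whereas arl-6 did, with 3.83 and 1.26 RPKM in TRAP and 6.77 and 1.60 in input. No transition zone gene passed, and mks-1 had 1.97 and 2.46 RPKM in TRAP and 3.40 and 1.51 in input.

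The GTPase gene arl-3 had 22.5 and 6.69 RPKM in serotonin TRAP and 4.28 and 3.36 in input, a log2 change of 1.49 ± 0.63 (p with the block = 0.0224). Its TRAP value in replicate 1 was the highest of any cilium gene in this strain. The kinase gene dyf-5 had 9.66 and 4.63 RPKM in TRAP and 0.673 and 0.666 in input, a log2 change of 2.21 ± 0.46 (p with the block = 0.00669). The Tubby gene tub-1 had 10.5 and 3.61 RPKM in TRAP and 1.17 and 0.852 in input, a log2 change of 1.86 ± 0.56 (p with the block = 0.0115). The gene daf-19 had 6.17 and 6.46 RPKM in TRAP and 1.99 and 1.38 in input, a log2 change of 1.45 ± 0.38 (p with the block = 0.0161), and its TRAP replicates lay closest together of these 3.

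The 2 serotonin TRAP libraries were not alike for these genes. Replicate 1 was above replicate 2 for 33 of the 38 genes, with a median difference of 0.56 on the log2(RPKM + 1) scale against 0.00 for all genes listed in both replicates. The inputs showed a median difference of -0.04, with 17 of 38 genes higher in replicate 1. The tph-1 values given above moved the same way, and their part in the result was not tested.

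**Figure D3:**
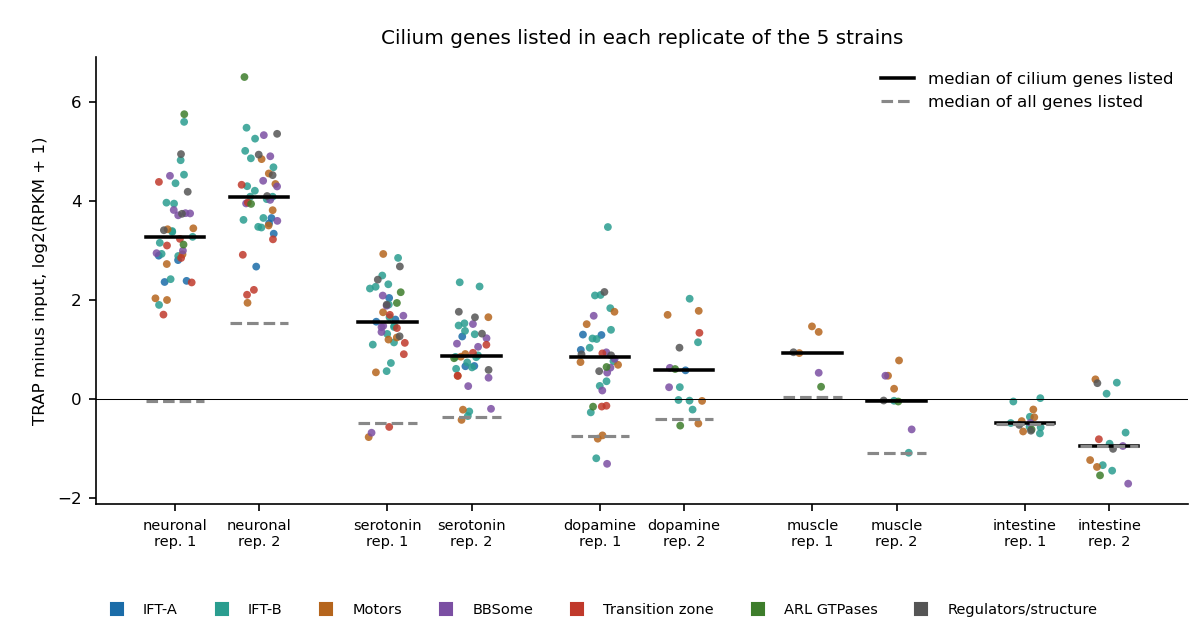
Log2 change from input to TRAP (RPKM + 1) of each cilium gene listed in each replicate of the 5 strains, coloured by role. Black bars are medians of the cilium genes listed and dashed bars those of all genes listed in that replicate. Replicate 1 and 2 have cilium medians of 3.27 and 4.08 (neuronal), 1.56 and 0.86 (serotonin) and 0.84 and 0.58 (dopamine), and in intestine they lie on those of all genes.

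In the dopamine purification the cilium genes were listed less often, 38 in at least 1 replicate, 17 in both, and 5 in neither. In replicate 1 all but 1 of the 38 listed genes had a TRAP value of at least 1 RPKM, and 30 were above their input. In replicate 2 TRAP was above input for 11 of 17. Through TRAP alone 18 of the 38 listings in replicate 1 and 3 of the 17 in replicate 2 arose, which sets their direction. Of the 17 listed in both, 10 were above their own input both times and 7 were at least 2 times as high. The 7 exceptions were klp-11, kap-1, che-13, ift-20, ifta-2, arl-3 and mks-1. As in serotonin, the share of all genes by these rules was not computed. Over all genes listed in dopamine, the median log2 change was -0.74 in replicate 1 and -0.41 in replicate 2.

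None of the 17 cilium genes passed without the replicate block, as none of the 14400 genes tested did (0% called), with 5 of 17 at an unadjusted p below 0.05 by limma and 9 of 17 by edgeR, which called none. With the block 5 were called higher and none lower, against 8.44% of all genes higher and 30.5% lower, and DESeq2 called 6 higher (8.68% of all genes). The median change was 0.73 for the cilium genes and -0.60 for all genes tested. Both TRAP values lay above both inputs for 8 of 17 and below both for 1, che-13. Among all genes tested 16.8% lay above. The dopamine listings through TRAP alone, given above, enter these counts too, so the counts support nothing further.

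Each dopamine change below has its SE from the fit without the block. The spread behind each p with the block was a trend over all genes, so a gene's own replicate spread does not enter it. The complex B gene dyf-3 had 20.99 and 12.6 RPKM in dopamine TRAP and 0.988 and 2.36 in input, a log2 change of 2.74 ± 0.63 (adjusted p = 1.59e-05 with the block and 0.0852 without). The gene osm-1 had 4.10 and 3.70 RPKM in TRAP and 1.21 and 1.13 in input, a log2 change of 1.17 ± 0.47 (adjusted p = 0.0234 with the block and 0.156 without). The values of osm-1 were close within TRAP and within input. Those of dyf-3 differed more, with log2 changes of 3.47 in replicate 1 and 2.02 in replicate 2. Among the motors, osm-3 had 3.32 and 3.38 RPKM in TRAP and 0.519 and 0.353 in input, a log2 change of 1.60 ± 0.42 (adjusted p = 0.000395 with the block and 0.0892 without). The kinesin-II gene klp-20 had 8.22 and 15.9 RPKM in TRAP and 1.73 and 3.94 in input, a log2 change of 1.77 ± 0.65 (adjusted p = 0.00612 with the block and 0.136 without). It was higher in replicate 2 in both TRAP and input. Its partners did not go with it, since klp-11 had 6.30 and 1.85 RPKM in TRAP and 11.8 and 3.03 in input, and kap-1 had 3.24 and 2.34 in TRAP and 6.07 and 2.44 in input. The transcription factor gene daf-19 had 8.13 and 4.66 RPKM in TRAP and 1.05 and 1.77 in input, a log2 change of 1.59 ± 0.55 (adjusted p = 0.0047 with the block and 0.121 without).

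The 3 neuronal purifications were then compared by the difference of their changes from input to TRAP, in a fit of all 12 libraries over the 12233 genes tested in each strain. It held 16 of the cilium genes. The neuronal libraries enter both of the first comparisons, so these are not independent. The change in neuronal exceeded that in serotonin for 9 of the 16 genes and that in dopamine for 11, and none was called the other way (limma-trend, adjusted p below 0.05). All genes were called in that direction at 11.7% and 14.8%, and the other way at 0.343% and 0.482%. That split depended on the scaling, since RLE scaling gave 1045 genes one way and 261 the other against serotonin, and 1228 and 620 against dopamine, with 9 and 11 cilium genes still called and none the other way. The cilium genes were mostly listed in neuronal through TRAP alone, in replicate 2 all of them, while 14 of 17 in dopamine replicate 2 had an input of at least 1 RPKM, so the listing rule favours a larger change in neuronal. The medians of the differences were 3.24 and 3.83 for the cilium genes and 1.27 and 1.43 for all genes. Between dopamine and serotonin none of the 16 was called, as none of all genes was (0% called, no cilium gene at an unadjusted p below 0.05), with a median of -0.60 for the cilium genes and -0.11 for all genes. A difference that misses the threshold does not show that the purifications were alike.

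Of complex B, ift-20, che-13 and dyf-6 differed from both other strains. The gene ift-20 had 8.68 and 1.54 RPKM in serotonin TRAP and 3.53 and 2.24 in input, and 10.98 and 1.81 in dopamine TRAP and 2.37 and 1.86 in input. Its neuronal change exceeded these by 5.05 ± 1.07 and 4.52 ± 1.07 (log2 difference, SE, adjusted p = 0.00975 and 0.0133). The gene che-13 had 12.6 and 3.08 RPKM in serotonin TRAP and 3.96 and 3.87 in input, and 2.29 and 2.57 in dopamine TRAP and 6.55 and 2.66 in input, and the differences were 4.17 ± 0.93 and 5.38 ± 0.93 (adjusted p = 0.0126 and 0.00239). In neither strain did these 2 genes stand clear of their input. The gene dyf-6 had 6.79 and 1.97 RPKM in dopamine TRAP and 2.35 and 1.53 in input, and its differences were 3.27 ± 0.82 and 3.79 ± 0.82 (adjusted p = 0.022 and 0.00861). The gene ifta-2 had 8.32 and 0.745 RPKM in dopamine TRAP and 1.18 and 1.03 in input, and there only the difference from dopamine passed, 4.21 ± 1.01 (adjusted p = 0.0141), that from serotonin being 2.55 ± 1.01 (adjusted p = 0.126). Of complex A, dyf-2 had 1.97 and 1.27 RPKM in dopamine TRAP and 0.498 and 0.522 in input, with a difference of 2.18 ± 0.61 from dopamine (adjusted p = 0.0311).

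In the kinesin-II pair of klp-11 and kap-1, whose serotonin and dopamine values are given above, the neuronal change was larger by 4.23 ± 1.08 and 3.73 ± 0.78 than in serotonin (adjusted p = 0.0237 and 0.00889). Against dopamine it was larger by 4.29 ± 1.08 and 4.28 ± 0.78 (adjusted p = 0.0182 and 0.00325). The neuronal values of kap-1 were 17.9 and 26.1 RPKM in TRAP and 0.737 and 0.343 in input. The differences of klp-20 were 2.60 ± 1.02 and 1.67 ± 1.02 and passed in neither comparison (adjusted p = 0.123 and 0.284). The outer kinesin gene osm-3 also passed in neither, with 0.92 ± 0.64 and 1.61 ± 0.64 (adjusted p = 0.373 and 0.111).

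The BBSome gene bbs-8 had 15.97 and 22.5 RPKM in neuronal TRAP, 4.07 and 1.43 in serotonin TRAP and 1.82 and 1.42 in dopamine TRAP. Its inputs were 0.264 and 0.112 RPKM, 0.860 and 1.03 and 1.51 and 1.06 in the same order, and its differences were 3.22 ± 0.68 from serotonin and 3.87 ± 0.68 from dopamine (adjusted p = 0.00929 and 0.00259). The gene bbs-5 had 5.67 and 4.37 RPKM in dopamine TRAP and 3.62 and 2.48 in input, and its differences were 3.27 ± 0.84 and 3.99 ± 0.84 (adjusted p = 0.024 and 0.0073). The transition zone gene mks-1 had 1.73 and 4.26 RPKM in dopamine TRAP and 2.04 and 1.09 in input, and its differences were 4.40 ± 0.75 and 3.76 ± 0.75 (adjusted p = 0.00331 and 0.0051). For arl-3, with 2.62 and 1.22 RPKM in dopamine TRAP and 3.04 and 2.24 in input, the difference from dopamine was 6.47 ± 0.95 (adjusted p = 0.00122) and that from serotonin was 4.63 ± 0.95 (adjusted p = 0.00825). In dopamine its TRAP libraries lay below its inputs in the same replicate, though its change turned to 0.07 with RLE scaling. At the other end, osm-1 and dyf-3 gave 0.88 ± 0.76 and 1.35 ± 0.99 against serotonin and 1.58 ± 0.76 and 0.89 ± 0.99 against dopamine, none of which passed (adjusted p from 0.179 to 0.551). With RLE scaling the difference of dyf-3 from dopamine was -0.015.

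**Figure D4:**
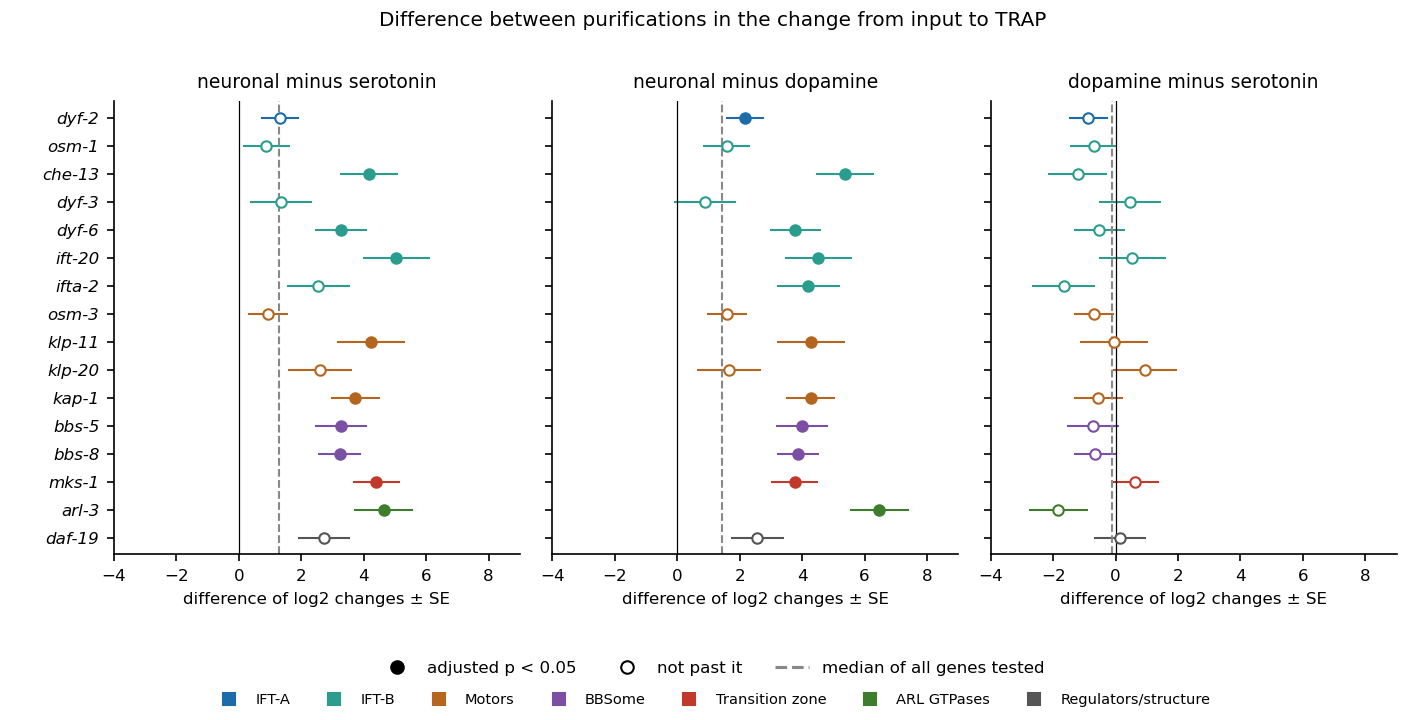
Difference between purifications in the log2 change from input to TRAP, with its SE, for the 16 cilium genes tested in all 3 strains. Filled points pass an adjusted p of 0.05 and dashed lines are the medians of all genes tested (1.27, 1.43 and -0.11). Filled points number 9 against serotonin, 11 against dopamine, and none between dopamine and serotonin.

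These counts rested in part on single libraries. Against serotonin the count was 3 without serotonin TRAP replicate 2 (5.98% of all genes) and 5 without serotonin input replicate 1 (4.72%). Against dopamine it was 6 without dopamine TRAP replicate 2 (7.86%) and 6 without dopamine input replicate 1 (6.32%).

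By TRAP level alone the neuronal mean was above the serotonin mean for 38 of 38 genes listed in both strains, at a median ratio of 5.33 (1.72 to 11.6). Over dopamine it was higher for 17 of 17, at a median ratio of 6.84 (2.17 to 78.3). Serotonin was above dopamine for 9 of 16. The tables were normalized separately, so the ratios carry any scale between them. In neuronal 36 of the 43 genes in replicate 1 and all 43 in replicate 2 were listed through TRAP alone, which favours that direction. The share over all genes was not computed, so the counts support nothing about cilium genes in particular. The order of the genes by TRAP level was shared to some degree between neuronal and serotonin, with Spearman's rho of 0.72 over 38 genes, points that have gene length and counting in common. It was lower in the other pairs, 0.51 between neuronal and dopamine over 17 genes and 0.37 between serotonin and dopamine over 16.

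Outside neurons few of these genes were listed. In muscle 6 were listed in both replicates, and in intestine 13. None was called in either, where 1.1% of all genes tested in muscle and 0.406% in intestine were called higher and 0.945% and 5.34% lower. At an unadjusted p below 0.05 limma had 0 of the 6 genes tested in muscle and 4 of the 11 in intestine, and edgeR had 3 and 0. DESeq2 called 2 of the 6 in muscle higher and none in intestine, against 8.82% and 4.73% of all genes, and edgeR called none, against 2.85% in muscle and 0% in intestine. The median change was 0.62 in muscle against -0.56 for all genes, and -0.72 in intestine against -0.74. Both TRAP values lay above both inputs for 3 of 6 genes in muscle and 1 of 11 in intestine, against 13.2% and 8.3% of all genes tested. The 6 genes listed in both replicates of all 5 strains were klp-11, klp-20, kap-1, bbs-5, arl-3 and daf-19. All 3 kinesin-II genes were among them, and no gene of complex A or B was. For kap-1, muscle TRAP was 2.36 and 1.51 RPKM against 0.218 and 0.816 in input, and intestine TRAP was 0.974 and 0.677 against 2.12 and 2.95. For arl-3, muscle TRAP was 1.61 and 2.12 RPKM against 1.20 and 2.25 in input, and intestine TRAP was 1.20 and 0.413 against 2.38 and 3.12. Both TRAP values lay above both inputs for kap-1 in muscle and below both for kap-1 and arl-3 in intestine. Through TRAP alone 5 of the 6 listings in muscle replicate 1 and 3 of the 9 in replicate 2 arose. In intestine 8 of the 15 listings in replicate 1 and 10 of the 15 in replicate 2 arose through input alone. The listing rule sets the direction of those, kap-1 in both strains included, so the counts above and below input support nothing further.

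**Figure D5:**
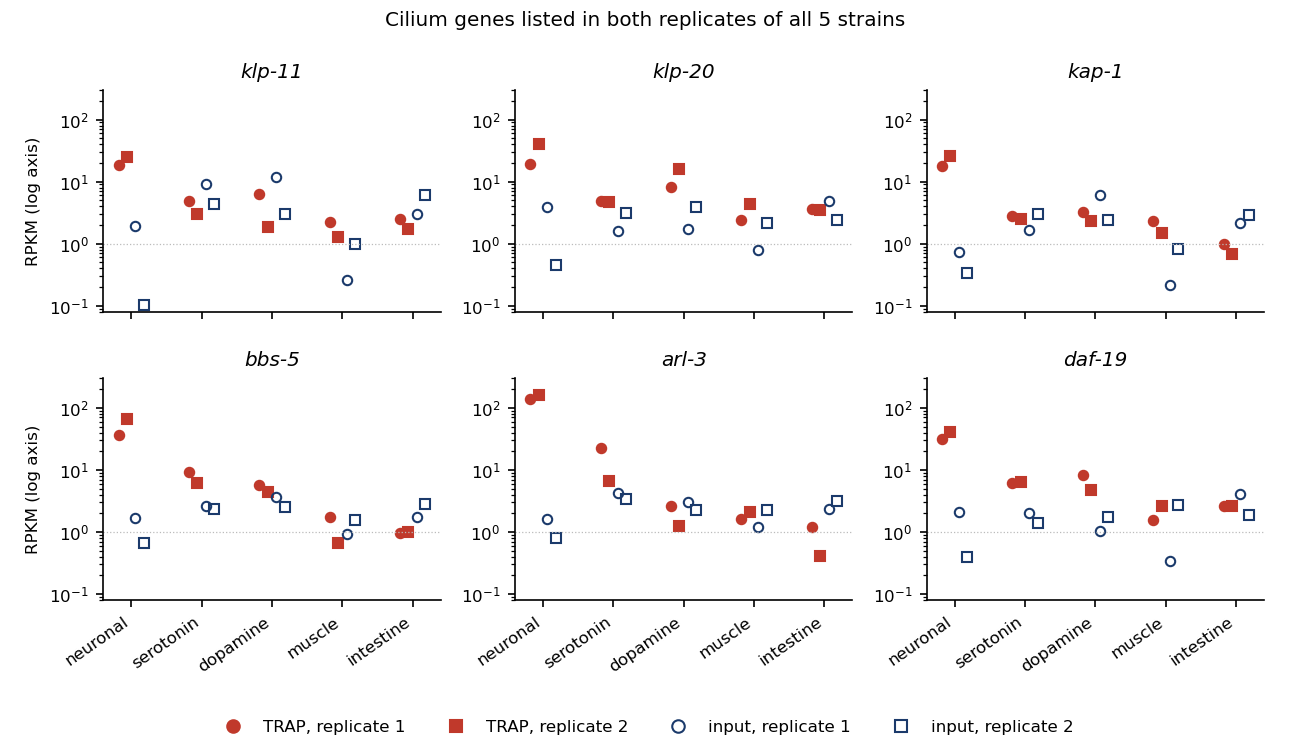
RPKM on a log axis of the 6 cilium genes listed in both replicates of all 5 strains, TRAP filled and input open, replicate 1 as circles and replicate 2 as squares. The neuronal TRAP points are the highest of every gene.

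A further list held 50 genes tied to cilia in C. elegans outside those above, of which 44 were listed. In neuronal 30 of these 44 were called higher and none lower, with a median change of 3.13, beside 16.8% of all genes higher. A gene of this list with an input below 1 RPKM was listed there through TRAP alone, which sets its direction. How many were so listed was not counted, so the 30 support nothing further. The 4 of smallest adjusted p were tbb-4, unc-119, rab-28 and dylt-2. The ciliary tubulin gene tbb-4 had 139.5 and 227 RPKM in TRAP and 2.73 and 1.63 in input. The lipid-binding chaperone gene unc-119 had 193 and 243 RPKM in TRAP over inputs of 8.69 and 3.62. The GTPase gene rab-28 had 98.8 and 125 RPKM in TRAP over inputs of 4.24 and 0.944. In all 3 genes both TRAP values stood well above both inputs. The dynein light chain gene dylt-2 had 28.1 and 32.5 RPKM in TRAP and was listed at 0 in both inputs. In serotonin 37 were tested and none called without the block, and with it 14 were higher and 3 lower (dylt-3, xbx-6 and tba-9), beside 29% of all genes lower. In dopamine 24 were tested and none called without the block, and with it 1 was higher (dyf-18) and 5 lower (tba-5, unc-119, dylt-3, xbx-3 and mksr-1), beside 30.5% of all genes lower. The ciliary tubulin gene tba-5 had 0.0926 and 0.327 RPKM in dopamine TRAP and 3.30 and 1.14 in input. With TRAP below 1 RPKM in both replicates it was listed through input alone, which sets its direction. In intestine 3 of 20 were called lower without the block (xbx-6, tbb-4 and xbx-5), and tbb-4 had 1.16 and 0.280 RPKM in TRAP and 2.41 and 4.65 in input. With the block 7 of the 20 were called lower in intestine, beside 20.9% of all genes, and with RLE scaling none was called without the block. DESeq2 called none of this list lower in serotonin or dopamine and 1 in intestine.

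The authors' deposited tables of enriched genes drew the same genes in different shares. The authors' deposited table of neuron-enriched genes, set at 5-fold, holds 43 of the cilium genes among 2370, which is 1.81% of the table. The authors' deposited serotonin table, set at 2-fold and without genes similarly detected in dopamine, holds 23 among 756 (3.04%), and their deposited dopamine table, made the other way round, holds arl-13 and klp-20 among 564 (0.355%). The authors' deposited muscle and intestine tables, of 577 and 719 genes, hold none. As shares of the genes listed in both replicates these tables take 17.3%, 5.12%, 3.88%, 5.66% and 5.04% in the order neuronal, serotonin, dopamine, muscle and intestine. In the authors' deposited ratios of TRAP over input, the cilium genes had a median of 31 in neuronal replicate 1 and 52.1 in replicate 2. The medians were 9.45 and then 3.23 for serotonin, and 3.68 and then 1.65 for dopamine.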

How the data were processed

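Cilium genes were taken by name, with the members and lists chosen with earlier results of these data known. The submitters' processing notes name STAR and HTSeq, with no role, and versions and genome build are not given in the sources used here. The authors' deposited tables give RPKM per library, the unit used here, and columns headed counts. From the values, in each replicate 1 library's deposited counts column holds whole reads + 1 and the other such reads times a factor, a scaled signal, so whole reads were recovered by dividing. RPKM was checked to be proportional to them. The listed RPKM of a library sum to 670637 in dopamine TRAP replicate 2 and 1581538 in neuronal input replicate 2. The authors' deposited ratio divides those columns and was only quoted, and the authors' deposited tables of average enrichment (fold) were used for membership.

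The design named edgeR for whole counts. As the files hold RPKM, the limma-trend test was used on log2(RPKM + 1), with limma 3.58.1 under R 4.3.3, with genes in both replicates at a mean RPKM of at least 1, Benjamini-Hochberg adjustment over all genes and a threshold of 0.05, tested on simulated data. Genes named with values follow a rule by role, smallest and largest p, and calls. Prior degrees of freedom were infinite in neuronal and muscle, and with the block in every comparison but serotonin against its input, so there a gene's own replicate spread enters neither SE nor p. The blocked fit of a strain leaves 1 residual degree of freedom. The file headers speak of 2 biological replicates and set each TRAP column next to its input, so equal numbers were taken as pairs. Deviations of same-numbered TRAP and input correlated at 0.451, 0.679 and 0.516 in neuronal, serotonin and dopamine. Alternatives were RLE scaling, a pseudocount of 0.1, other filters, the block, each library left out, edgeR 4.0.16 and DESeq2 1.42.0 on recovered reads, and other sets of libraries. Counting error is largest in the neuronal inputs. That replicates are biological is known only from those headers. Each p measures spread among the libraries given only, and where the prior was infinite that spread is a trend fitted over all genes.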

Additional observations from a re-analysis of the deposited data

Results flagged for a closer look

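The cilium genes below were singled out because their change from input to TRAP differed between purifications in a direct test (limma-trend over 12 libraries, adjusted p below 0.05, 16 cilium genes tested). Values are differences of log2 changes on the RPKM + 1 scale.

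The neuronal change exceeded the serotonin change by 5.05 for ift-20, 4.63 for arl-3, 4.40 for mks-1, 4.23 for klp-11, 4.17 for che-13, 3.73 for kap-1, 3.27 for bbs-5, 3.27 for dyf-6 and 3.22 for bbs-8. The neuronal change exceeded the dopamine change by 6.47 for arl-3, 5.38 for che-13, 4.52 for ift-20, 4.29 for klp-11, 4.28 for kap-1, 4.21 for ifta-2, 3.99 for bbs-5, 3.87 for bbs-8, 3.79 for dyf-6, 3.76 for mks-1 and 2.18 for dyf-2. The adjusted p of each stands in the comparison of the purifications, and the neuronal libraries are shared by both sets. Summed over the 16 genes, the inputs were 20.4 and 4.599 RPKM in neuronal against 37.9 and 32.9 in serotonin, and neuronal input replicate 2 stood apart over all genes. The part of the inputs and of the listing through TRAP in the differences was not tested.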

How the results depend on the processing

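Of 66 changes of single genes given here, 1 turned, the difference of dyf-3 between neuronal and dopamine, which was not called and went from 0.89 to -0.015 with RLE scaling, with or without the replicate block (adjusted p from 0.989 to 0.992). Under the alternatives these changes lost the call 71 times and gained it 84 times, and stayed on the same side 841 times. Over all 159 fits of cilium genes in the 8 comparisons, none of the 61 called turned under any alternative run and 21 of the 98 not called did, among them kap-1 and arl-3 in dopamine and mks-1 in serotonin. The 61 were 41 in neuronal, 9 against serotonin and 11 against dopamine, so all used the neuronal libraries. There the listing rule sets or favours the direction, so that none turned supports nothing. Counts called lower stayed at 0 in all 8 comparisons under each alternative.

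The count of cilium genes called higher in neuronal, 41 of 43, was 0 with edgeR on recovered reads and 16 of 16 in the fit of 12 libraries, which tests fewer genes. The replicate block left it at 41 and, with RLE scaling, took it to 43. In serotonin, with 0 of 34 in the design without the pairing, the replicate block gave 18, the block with RLE scaling 25 and DESeq2 25. In dopamine, with 0 of 17, the replicate block gave 5, the block with RLE scaling 12 and DESeq2 6. In muscle DESeq2 gave 2 of 6 in place of 0. Against serotonin the neuronal change was called larger for 9 of 16 genes, for 12 with the replicate block, for 1 of 2 at a mean RPKM of at least 5, and for 22 of 34 with only those 8 libraries and the replicate block, a fit chosen after seeing the data. Against dopamine it was 11 of 16, 12 with the replicate block and 1 of 2 at a mean RPKM of at least 5. The replicate block moved no other count of these cilium genes by over 1.5 times. It did move the further list of cilium genes, from 6 to 13 against serotonin and from 9 to 14 against dopamine, and all genes, from 1429 to 3055 and from 1814 to 3667. Apart from the tests of fewer genes, the cause was not tested.

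With each library left out in turn, the counts called higher ran from 9 to 42 in neuronal, from 3 to 12 against serotonin and from 6 to 14 against dopamine, and stayed at 0 in serotonin, dopamine, muscle, intestine and between dopamine and serotonin. Depth limits the neuronal inputs most, where the median cilium gene had 2 and 5 reads. The listing of genes at 1 RPKM or more hides cilium genes low in both libraries, 5 in dopamine and 2 in serotonin.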

Other observations

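Receptor channels that sit in sensory cilia were set beside the genes that build them. The TRP channel gene osm-9 had 8.67 and 4.12 RPKM in neuronal TRAP against 0.470 and 0.133 in input, and 4.86 and 1.24 in serotonin TRAP against 0.303 and 0.267 in input, and was not listed in dopamine. Its partner channel gene ocr-2, which is used in ADF neurons, had 9.43 and 3.88 RPKM in neuronal TRAP against 1.05 and 0.0344, 7.59 and 2.89 in serotonin TRAP against 1.22 and 1.46, and 1.18 and 1.58 in dopamine TRAP against 2.99 and 1.57. In neuronal both TRAP values of these genes were above both inputs, in serotonin likewise, and in dopamine the ocr-2 values overlapped. All inputs of osm-9, and that of ocr-2 in neuronal replicate 2, were below 1 RPKM. Those were listed through TRAP alone, which sets their direction. The summed RPKM of the 10 named transduction genes of ciliated neurons was 175 and 204 in neuronal TRAP against 31.1 and 16.1 in input. In serotonin it was 48.1 and 37.9 against 32.0 and 45.6, and in dopamine 22.9 and 23.8 against 50.9 and 41.9. Only 5 of the 10 were listed in serotonin and 4 in dopamine. The gene odr-4 alone had 26.2 and 29.3 RPKM in serotonin TRAP against 26.7 and 39.2. In dopamine TRAP it had 21.3 and 21.8 RPKM against 42.6 and 37.6, so the sums in both strains mostly follow odr-4. Of the listed genes 3 lay above both inputs and 1 below in serotonin, and 0 above and 3 below in dopamine. Some of these were listed through TRAP or input alone, so the counts support nothing further. Genes not listed in a replicate enter these sums as 0.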
